A study of Homo sapiens with 13 samples.

Results

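The neutrophil-attracting CXC chemokines were followed in MCF10A cells, a human breast epithelial line that grows without limit but forms no tumours, which the labels list as breast cancer. The group was chosen by name and holds 6 of the 38369 gene rows of each deposited table, namely CXCL1, CXCL2, CXCL3, CXCL5, CXCL6 and IL8, the older symbol of CXCL8. PolyA-selected RNA was sequenced in 2 experiments. MCF10A-Src cells carry an introduced Src kinase that tamoxifen switches on, and were harvested at 0 h (1 library), 4 h (2 libraries), 12 h (1 library) and 36 h (2 libraries) of tamoxifen. Parental MCF10A cells were harvested 72 h after transduction with the long intergenic RNA LINC00520 (2 libraries) or as untransduced controls, described as mock transduced (3 libraries). All cells were kept in serum-containing medium with insulin, EGF, cholera toxin and hydrocortisone. The tamoxifen series has no untreated cells kept alongside it, so Src activation and time in culture cannot be told apart. Likewise, LINC00520 and the act of transduction cannot be told apart, because 2 libraries of a control lincRNA were matched to no column and are not analysed here. Nothing in the labels says that replicates were separate cultures, so p-values here rest on the spread between libraries, and that spread may be purely technical.

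Chemokines are small secreted proteins that guide white blood cells along a gradient. The CXC members with the amino acids glutamate, leucine and arginine (ELR) before the first cysteines attract neutrophils through the receptors CXCR1 and CXCR2, and IL8 is the best known of them in human epithelium. Their genes stand side by side on chromosome 4 and are textbook targets of NF-κB, a transcription factor switched on by IL-1, TNF and bacterial products, while their short-lived mRNAs carry AUUUA repeats through which they are degraded. In the files the 6 rows lie between 74606275 and 74964997 on chromosome 4 (hg19), a span of 358.7 kb. CXCL1 lies at 74735109 to 74736953, CXCL5 at 74861360 to 74865009, CXCL3 at 74899809 to 74908473 and CXCL2 at 74962764 to 74964997. IL8 and CXCL6 share 1 listed locus, 74606275 to 74711916, and the loci of CXCL3 and CXCL5 also hold the antisense rows linc-CXCL3-AS and linc-CXCL5-AS. The strand setting of the counting is not given in the sources used here, so reads of a gene and of its antisense row cannot be told apart.

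The promoters are shown because all 6 hold the same κB core, GGAATTTCC, in capitals, at a similar distance from the start. Each line gives the 130 bases before the start of transcription from RefSeq (GRCh38.p14, chromosome 4), 5′ to 3′ on the gene's strand.
IL8: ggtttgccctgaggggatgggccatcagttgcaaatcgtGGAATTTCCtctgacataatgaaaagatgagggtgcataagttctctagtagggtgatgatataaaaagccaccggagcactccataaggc
CXCL6: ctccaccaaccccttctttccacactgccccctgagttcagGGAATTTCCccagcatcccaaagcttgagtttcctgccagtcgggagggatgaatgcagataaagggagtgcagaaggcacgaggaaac
CXCL1: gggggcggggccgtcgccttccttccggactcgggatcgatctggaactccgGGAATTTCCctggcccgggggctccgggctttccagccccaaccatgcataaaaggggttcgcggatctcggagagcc
CXCL5: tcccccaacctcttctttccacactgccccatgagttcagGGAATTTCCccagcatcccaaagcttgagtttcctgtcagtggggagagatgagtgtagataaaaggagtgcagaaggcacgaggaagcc
CXCL3: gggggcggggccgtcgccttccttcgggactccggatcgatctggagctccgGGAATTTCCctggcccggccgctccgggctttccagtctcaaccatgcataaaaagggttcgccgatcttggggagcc
CXCL2: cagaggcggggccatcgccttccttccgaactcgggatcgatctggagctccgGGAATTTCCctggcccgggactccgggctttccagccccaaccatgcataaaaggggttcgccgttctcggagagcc
IL8, CXCL6 and CXCL1 lie on the plus strand, at chr4:73740439-73740568, chr4:73836548-73836677 and chr4:73869263-73869392. CXCL5, CXCL3 and CXCL2 lie on the minus strand, at chr4:73998678-73998807, chr4:74038690-74038819 and chr4:74099196-74099325. The core begins 91 bases before the start in IL8, 90 in CXCL5, 89 in CXCL6, 78 in CXCL1 and CXCL3, and 77 in CXCL2. Of all 35116 RefSeq promoters, searched over the same 250 upstream bases on both strands, 0.413% hold it. The wider κB consensus, which overlaps the core, was matched in 5 of the 6 (all but IL8) and in 9.96% of all promoters. A TATA-like ATAAAA occurred in 5 of the 6 (all but CXCL6) against 14.8%. The AP-1 motif TGANTCA was found in IL8 alone, from 137 to 131 bases before the start, against 6.57% of promoters. The STAT-type motif TTCNNNGAA was found in CXCL5 and CXCL6, where it overlaps the κB core, against 6.57%.

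Over the 250 upstream bases the promoters of CXCL5 and CXCL6 were 85.3% identical, those of CXCL1 and CXCL3 81.4%, those of CXCL2 and CXCL3 73.3%, and those of CXCL1 and CXCL2 69.0%. The other pairs were between 42.3% and 51.5%. The transcripts of CXCL1, CXCL2 and CXCL3 also resemble each other, and 5.73%, 9.24% and 5.26% of their 50-base stretches recur in another member, so a small part of their reads could have been assigned to either gene. CXCL5, CXCL6 and IL8 share no 50-base stretch with another member. The ATTTA pentamer, AUUUA in the mRNA, occurs 4 times in the longest coding transcript of CXCL1, 8 times in CXCL2, 7 in CXCL3, 11 in CXCL5, 6 in CXCL6 and 9 in IL8, against a median of 2 over 19669 genes.

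Library depth was 12.6 to 52.3 M fragments. The row taken as LINC00520, linc-TBPL2-2 (chromosome 14, 56243909 to 56263392, between KTN1 and PELI2), held 46.2 and 46.0 CPM (fragments scaled to library size and between libraries) in the LINC00520 libraries, against 0.139, 0.200 and 0.0882 CPM in the untransduced libraries. In the tamoxifen series the same row held 1.59 CPM at 0 h, 1.56 and 0.934 CPM at 4 h, 14.7 CPM at 12 h, and 162 and 202 CPM at 36 h. In FPKM (fragments scaled to transcript length and library size) the order of the 2 experiments was reversed. The row held 225 and 224 FPKM in the LINC00520 libraries, against 70.7 and 106 FPKM at 36 h. Untransduced libraries held 0.412, 0.531 and 0.213 FPKM, against 0.193 FPKM at 0 h. The 2 experiments are therefore not ranked on this row. The part of the row in the chemokine levels of the tamoxifen series was not tested. All 8 markers of basal breast epithelium were at 1 FPKM or more in every group, but their level moved with the groups. Their sum was 3833 FPKM at 0 h, 6122 and 6139 FPKM at 4 h, 4606 FPKM at 12 h, and 2641 and 2731 FPKM at 36 h, and TP63, the transcription factor of basal cells, stood at 8.95 and 9.27 FPKM at 36 h, against 25.7 and 28.8 FPKM at 4 h. In LINC00520 cells the sum was 4104 to 4212 FPKM, against 3590 to 3731 FPKM in untransduced cells, with the basal keratin KRT14 at 523 to 524 FPKM, against 177 to 219 FPKM. Of 10 neutrophil and monocyte markers only CD14 reached 1 FPKM, ELANE and TYROBP were listed at 0 in every time-course library, and the summed level was 13.2 and 15.8 FPKM at 36 h, against 5.09 FPKM at 0 h, nearly all of it CD14. Of 6 fibroblast markers only DCN, the proteoglycan decorin, reached 1 FPKM in the time course, at 17.2 FPKM at 0 h, 18.3 and 21.1 FPKM at 4 h, 29.5 FPKM at 12 h, and 58.0 and 77.5 FPKM at 36 h, with COL1A2 listed at 0. In parental cells DCN stood at 10.9 to 11.3 FPKM with LINC00520, against 10.99 to 11.56 FPKM untransduced, and PDGFRB at 1.64 to 1.87 FPKM, against 1.68 to 1.84 FPKM. None of 6 lymphocyte markers reached 1 FPKM in any group. The part of the basal, CD14 and DCN differences in the chemokine levels was not tested.

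Tamoxifen treatment was accompanied by higher mRNA of CXCL1, CXCL2, CXCL3 and IL8, while CXCL5 and CXCL6 stayed at or near 0. These 4 members passed the filter of 1 FPKM and were tested with edgeR's quasi-likelihood (QL) test, with Benjamini-Hochberg adjustment over all 15572 tested genes and a threshold of 0.05. At 36 h all 4 had risen above 0 h, by 2.94-fold for CXCL2, 4.76-fold for CXCL1, 5.53-fold for IL8 and 39.7-fold for CXCL3, where 19.4% of the tested genes were called, 9.99% higher and 9.36% lower. In these bulk samples, fewer cells of a type and less RNA per cell cannot be told apart.

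**Figure D1:**
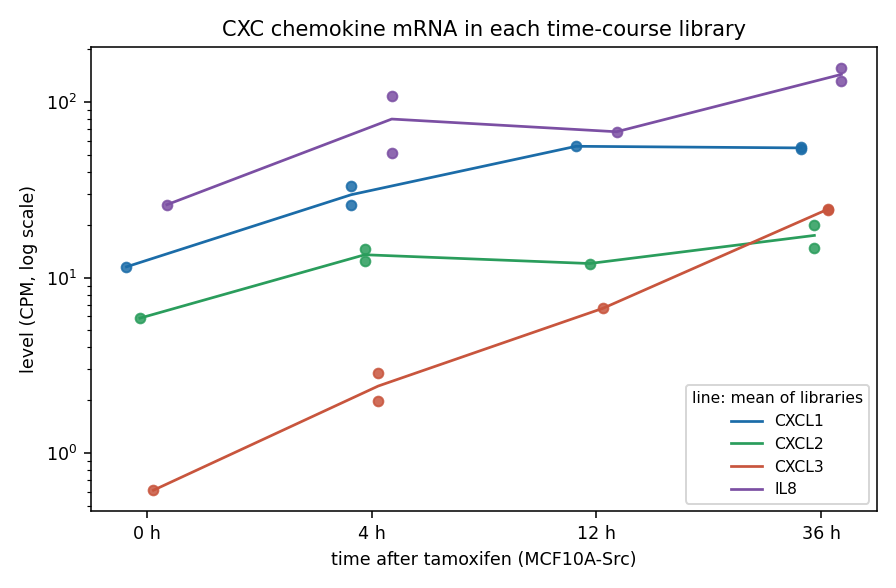
Level of the 4 measured chemokines in each MCF10A-Src library (1 point per library, CPM on a log scale) against time after tamoxifen (evenly spaced categories), with lines through the means. CXCL3 climbs at every step to 24.6 and 24.4 CPM at 36 h, while CXCL1 is level between 12 h and 36 h.

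CXCL3, one of the growth-regulated (GRO) chemokines, showed the largest change among the members. It held 0.613 CPM at 0 h, 1.97 and 2.84 CPM at 4 h, 6.68 CPM at 12 h, and 24.6 and 24.4 CPM at 36 h. Each time point lay above all libraries of the time before it. In edgeR's QL test (Benjamini-Hochberg adjusted), 36 h exceeded 0 h by 5.31 on the log2 scale (SE 0.366, adjusted p = 8.67e-05) and 4 h by 3.34 (SE 0.249, adjusted p = 7.96e-05). CXCL3 was the member past the threshold at every step. It rose 3.93-fold at 4 h over 0 h (edgeR adjusted p = 0.0193), 2.75-fold at 12 h over 4 h (edgeR adjusted p = 0.0330) and 3.67-fold at 36 h over 12 h (edgeR adjusted p = 0.00658). The 0 h value rests on 35 fragments in 1 library. Under both limma fits the first of these calls ended (adjusted p = 0.0977 and 0.114, within a range of 1.13e-05 to 0.114 over the alternatives), as did that of 12 h over 4 h, at adjusted p of up to 0.167 (from 0.000462).

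The antisense row at the same locus moved beside it. linc-CXCL3-AS had 62 fragments at 0 h, 26 and 75 at 4 h, 175 at 12 h, and 502 and 219 at 36 h, and rose at 36 h over 4 h by 3.29 on the log2 scale (SE 0.359, edgeR adjusted p = 0.000439). The antisense row reached 1 FPKM at 12 h and 36 h only, the groups where it is high. How far reads of the 2 rows were exchanged was not tested.

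CXCL1, the GRO chemokine first known as a melanoma growth factor, rose early and then levelled. It held 11.5 CPM at 0 h, 25.9 and 33.4 CPM at 4 h, 56.0 CPM at 12 h, and 54.0 and 55.6 CPM at 36 h. The 12 h library lay above both 36 h libraries, and all 3 lay above the 4 h pair. In edgeR's QL test (Benjamini-Hochberg adjusted) it rose by 1.37 at 4 h over 0 h (log2, SE 0.236, adjusted p = 0.0183), by 2.28 at 12 h over 0 h (SE 0.266, adjusted p = 0.00287) and by 0.88 at 36 h over 4 h (SE 0.183, adjusted p = 0.00726). Between 36 h and 12 h the log2 difference was -0.03 (SE 0.22, edgeR adjusted p = 0.940). The 4 h call ended under both limma fits (adjusted p of up to 0.0978). At 12 h over 4 h the log2 difference of 0.92 (SE 0.215) missed the threshold (edgeR adjusted p = 0.0561). It was 0.74 without replicate 1 of the 4 h libraries and 1.14 without replicate 2. Such fits leave 1 library at 4 h and rest on the spread of the 36 h pair, so their p-values are not given. The adjusted p reached 0.202 over the alternatives.

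CXCL2, the GRO chemokine known in macrophages as an inflammatory protein, changed least of the 4 measured members at 36 h over 0 h. It held 5.87 CPM at 0 h, 12.5 and 14.5 CPM at 4 h, 12.0 CPM at 12 h, and 14.8 and 19.9 CPM at 36 h. From 4 h on the libraries lay close together, all above the 0 h library. It rose at 4 h over 0 h (log2 1.20, SE 0.278, edgeR adjusted p = 0.0457) and at 36 h over 0 h (log2 1.56, SE 0.284, edgeR adjusted p = 0.00813). The 4 h call sat near the threshold and ended with scaling by library totals alone (adjusted p = 0.0617) and under limma (up to 0.148), the alternatives reaching down to 0.00128. At 12 h over 0 h the log2 difference was 1.03 (SE 0.308, edgeR adjusted p = 0.122). Over the alternatives it ran from 0.91 to 1.06, at an adjusted p of up to 0.277. The log2 difference at 36 h over 4 h was 0.36 (SE 0.22, edgeR adjusted p = 0.234), with 0.56 without replicate 1 and 0.14 without replicate 2 of the 36 h libraries.

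IL8, the most abundant member, had the widest spread between the 4 h replicates. It held 26.0 CPM at 0 h, 51.3 and 109 CPM at 4 h, 67.8 CPM at 12 h, and 132 and 156 CPM at 36 h. The 4 h pair spanned the 12 h library, and both 36 h libraries lay above all others. It rose at 36 h over 0 h by 2.47 on the log2 scale (SE 0.431, edgeR adjusted p = 0.00692), a call that ended under limma (adjusted p = 0.0806 and 0.0957, the alternatives reaching down to 4.53e-18). The 4 h difference from 0 h, 1.62 (SE 0.411), missed the threshold (edgeR adjusted p = 0.0584). It was 2.06 without replicate 1 of the 4 h libraries and 0.98 without replicate 2, with no p-value given for these fits. All 4 measured members were called at 4 h over 0 h with DESeq2, with RLE factors and without the filter, and none under limma. In the authors' deposited table IL8 was called significant at 4 h over 0 h (q = 0.0130) and at 36 h over 0 h (q = 0.000829). It was not called there at 12 h over 0 h (q = 0.0644), 12 h over 4 h (0.759), 36 h over 12 h (0.0576) or 36 h over 4 h (0.178). CXCL1 at 12 h over 4 h and CXCL2 at 12 h over 0 h, which missed the threshold here, were called there (q = 0.00651 and 0.0237). IL8 at 36 h over 4 h differed by 0.84 on the log2 scale (SE 0.313, edgeR adjusted p = 0.0643, up to 0.19 over the alternatives). It differed by 0.40 without replicate 1 and by 1.53 without replicate 2 of the 4 h libraries. At 12 h over 0 h the log2 difference of 1.38 (SE 0.448) missed the threshold (edgeR adjusted p = 0.148). Over the alternatives it ran from 1.22 to 1.41, at an adjusted p of up to 0.502.

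CXCL5, an epithelial chemokine known from lung and gut, had 0 fragments at 0 h, 0 and 0 at 4 h, 2 at 12 h, and 5 and 2 at 36 h. Those 7 fragments at 36 h, against none at 0 h, give a 4.26-fold difference with 3 fragments taken as the floor at 0 h. This figure takes the 7 fragments as exact and is not a lower bound. CXCL6, an antibacterial member of the family, had no fragment in any of the 6 time-course libraries, which over their 157 M fragments allows a level of up to 0.0191 CPM. Neither passed the filter, and linc-CXCL5-AS had no fragment. Intervals here cover counting error only, and floors cover only that of the group without fragments.

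Read against all genes, the members' calls stood as follows. At 4 h over 0 h, 3 of the 4 members tested were called, all higher, while 6.24% of the tested genes were called, 3.15% higher and 3.09% lower. Their median log2 difference was 1.49, against 0.0061 over all tested genes. At 12 h over 0 h, 2 of 4 were higher, where 4.24% of genes were called, 3.04% higher and 1.20% lower. The 4 of 4 called at 36 h over 0 h had a median log2 difference of 2.36, against -0.077 for all tested genes. At 12 h over 4 h and at 36 h over 12 h, 1 of 4 was higher, CXCL3 in both. Of all genes 4.60% were called at 12 h over 4 h, 2.96% higher and 1.64% lower, and 20.9% at 36 h over 12 h, 10.3% higher and 10.5% lower. Last, 2 of 4 were higher at 36 h over 4 h, where 39.4% were called, 18.8% higher and 20.5% lower. With scaling by library totals alone, 1016 genes were higher and 3740 lower at 36 h over 0 h, 836 and 3275 at 36 h over 12 h, and 1861 and 4823 at 36 h over 4 h, while the members called numbered the same, 4, 1 and 2. The comparisons that share the 0 h library or the 4 h libraries are not independent of each other.

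**Figure D2:**
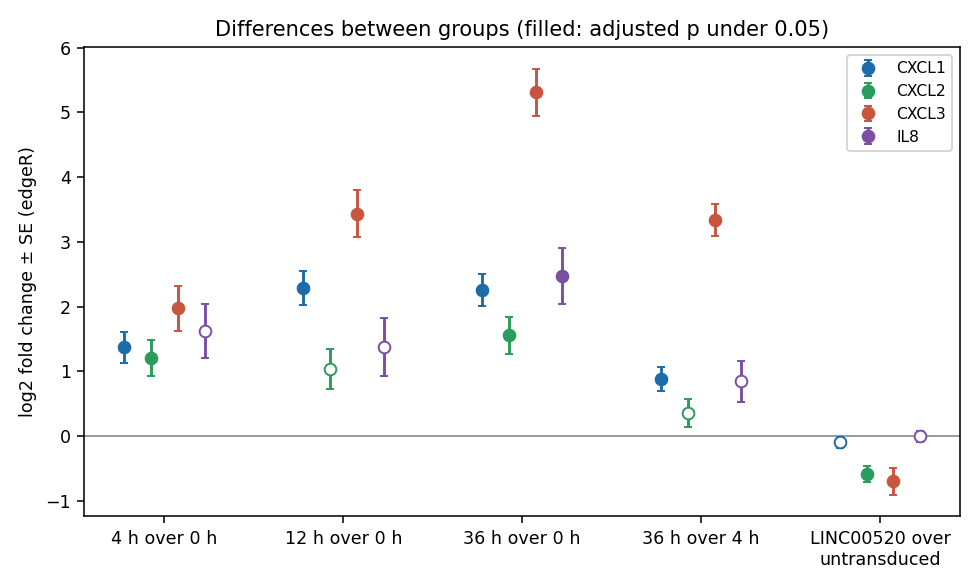
Log2 fold change with its SE (edgeR) for the 4 measured chemokines in 5 comparisons, filled where the adjusted p was under 0.05. All 4 are filled at 36 h over 0 h, from 1.56 for CXCL2 to 5.31 for CXCL3, and CXCL2 and CXCL3 alone are filled, below 0, in LINC00520 over untransduced cells.

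Levels of different members can be compared only per length, in FPKM. On that scale IL8 led in every time-course library, at 37.4 FPKM at 0 h, 59.6 and 165.6 FPKM at 4 h, 88.2 FPKM at 12 h, and 215.4 and 202.6 FPKM at 36 h. CXCL1 came second throughout, at 60.4 and 65.9 FPKM at 36 h, against 13.0 FPKM at 0 h. The order of the last pair changed: CXCL3 stood below CXCL2 up to 12 h (6.99 against 12.0 FPKM) and above it at 36 h, at 26.1 and 27.3 FPKM against 15.0 and 21.2 FPKM. The summed level of the 6 members was 56.9 FPKM at 0 h, 104 and 223 FPKM at 4 h, 169 FPKM at 12 h, and 317 FPKM in both 36 h libraries. IL8 made up 68.0% and 63.9% of that sum at 36 h, against 65.7% at 0 h. CXCL3 made up 1.14% at 0 h, 4.13% at 12 h, and 8.23% and 8.60% at 36 h, while the share of CXCL2 was 4.73% and 6.70% at 36 h, against 10.4% at 0 h. These shares were not tested.

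**Figure D3:**
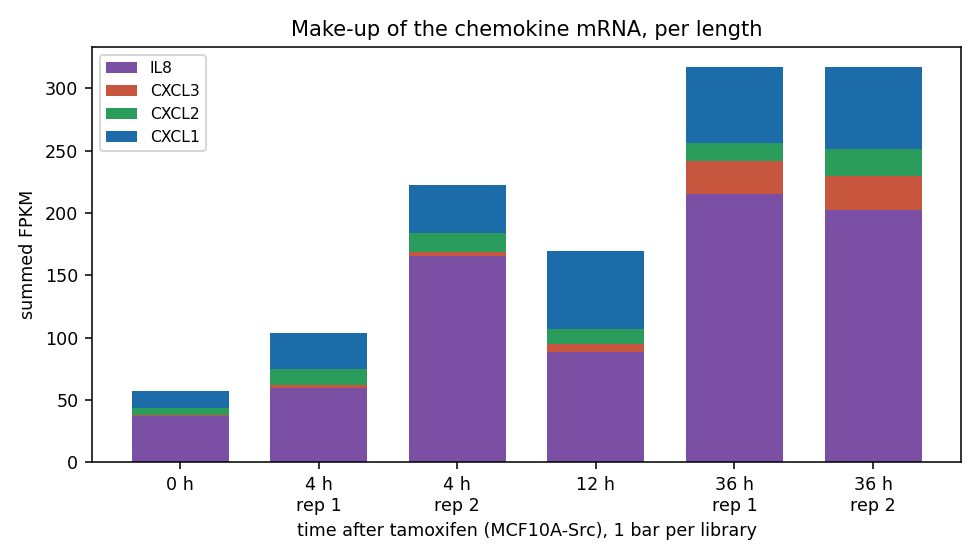
Summed FPKM of the members in each MCF10A-Src library, stacked by gene (CXCL5 and CXCL6 are too low to see). The 4 h bars, 104 and 223 FPKM, differ mostly in the IL8 segment, 59.6 and 165.6 FPKM, and both 36 h bars reach 317 FPKM.

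Across the 6 time-course libraries, Pearson's r between the log2(CPM + 1) of 2 members ran from 0.785 for CXCL2 and CXCL3 to 0.940 for CXCL2 and IL8. The genes whose log2(CPM + 1) was most like the members' mean standardised profile, among 8886 compared over the same 6 libraries, were B3GNT2, a glycosyltransferase (r = 0.998), SLC15A4, a lysosomal transporter (r = 0.995), YIPF1, a Golgi membrane protein (r = 0.994), DUSP1, a phosphatase of MAP kinases (r = 0.993), and SOD2, the mitochondrial superoxide dismutase (r = 0.991). SOD2 had 341 CPM at 0 h, 1116 and 1515 CPM at 4 h, 2311 CPM at 12 h, and 4382 and 4802 CPM at 36 h. DUSP1 had 973 and 1011 CPM at 36 h, against 344 CPM at 0 h. With 4 time points in 6 libraries these correlations describe a shared order of the libraries and carry no test.

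The receptors of these chemokines were also measured. CXCR1 (row IL8RA), which binds IL8 and CXCL6, held 5.82 CPM at 0 h, 4.25 and 3.61 CPM at 4 h, 5.94 CPM at 12 h, and 37.5 and 64.2 CPM at 36 h. CXCR2 (row IL8RB), which binds all 6, held 1.21 CPM at 0 h, 0.830 and 0.976 CPM at 4 h, 5.09 CPM at 12 h, and 27.7 and 39.9 CPM at 36 h. Both were low at 4 h and highest at 36 h, with no overlap between those groups, a description of 2 libraries each. In edgeR's QL test (Benjamini-Hochberg adjusted), 36 h over 4 h was 3.69 for CXCR1 (log2, SE 0.304, adjusted p = 0.000124) and 5.21 for CXCR2 (SE 0.299, adjusted p = 2.56e-05). CXCR2 had risen by 12 h over 4 h (log2 2.48, SE 0.337, edgeR adjusted p = 0.00821), whereas CXCR1 differed there by 0.60 (SE 0.352, edgeR adjusted p = 0.414). About 5.13% of the 50-base stretches of CXCR1 and 4.42% of those of CXCR2 recur in the other receptor. ACKR1 (row DARC), a decoy that binds chemokines without signalling, did not pass the test at any step. ACKR3 (row CXCR7), a scavenger known for CXCL11 and CXCL12, had 69 and 52 fragments at 36 h, against 1 and 5 at 4 h, and shares its locus with an antisense row. It passed the filter only through the 36 h libraries, where it is high, so these values are a description. CXCR2 reached 1 FPKM at 12 h and 36 h only. CXCR1 and CXCR2 are known above all from neutrophils. Beside their rise, CD14 stood at 12.9 and 15.5 FPKM at 36 h, against 7.22 and 8.24 FPKM at 4 h. It alone of the 10 neutrophil and monocyte markers reached 1 FPKM. Below that, FCGR3B stood at 0.0452 to 0.0457 FPKM at 36 h, against 0 to 0.0201 FPKM at 4 h. MPO stood at 0.140 to 0.156 FPKM, against 0.0687 to 0.0818 FPKM. ITGAM was also higher, LYZ was lower, PTPRC, CSF3R and SPI1 overlapped, and ELANE and TYROBP were at 0. The part of these markers in the receptor values was not tested.

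**Figure D4:**
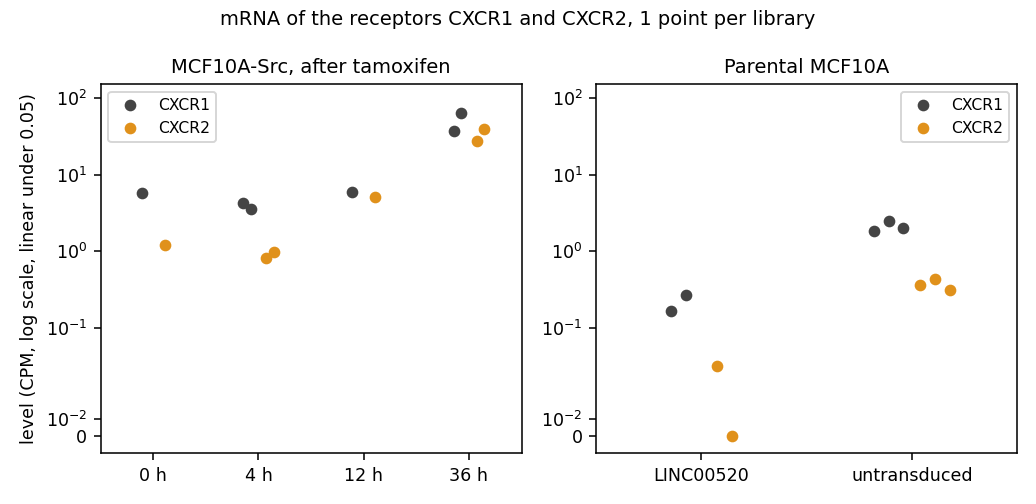
CPM of CXCR1 and CXCR2 in each library (log scale, linear under 0.05) in MCF10A-Src cells over time (left) and in parental cells (right). Both are highest at 36 h, and both are lower in LINC00520 cells than in untransduced cells, where CXCR2 rests on 13, 13 and 7 fragments.

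The other CXC chemokines moved in both directions. PPBP, the platelet chemokine whose gene lies between IL8 and CXCL5, had 31 and 9 fragments at 36 h, against none at 4 h. PPBP was then 18.3-fold higher with a floor of 3 fragments at 4 h, the fragments at 36 h taken as exact. It passed the filter only through the 36 h libraries, so no test is given. Of 8 CXC chemokines without ELR, 4 were tested, and CXCL10, CXCL11 and CXCL17 passed the filter only through the group where each is high, so their values are a description. CXCL10 and CXCL11, interferon-induced attractants of T cells, had no fragment at 36 h, against 111 and 102 at 4 h. With the same floor, here at 36 h, they were 27.0-fold and 24.8-fold lower. CXCL16, a membrane-bound chemokine, fell by 1.73 (log2, SE 0.228, edgeR adjusted p = 0.00104), to 6.86 ± 1.44 CPM at 36 h, against 22.5 ± 2.56 CPM at 4 h (SD, n = 2 each). CXCL17, a mucosal chemokine, had 30 fragments at 36 h against 3 at 4 h, a ratio of 13.7 (exact 95% interval 4.26 to 70.2). At 4 h over 0 h CXCL16 rose by 1.30 (log2, SE 0.272, edgeR adjusted p = 0.0335), and CXCL10 had 111 fragments at 4 h, against 7 at 0 h.

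Signals and factors that act upstream of these genes in general were taken from lists. Of 18 tested genes on a list of inducing cytokines, receptors and their partners, 7 were higher and none lower at 4 h over 0 h. The median log2 was 0.72 against 0.0061 over all genes, 6.24% of which were called. The 7 include IL1RN, an antagonist of the IL-1 receptor. They also include TLR2, called higher on fragments although its FPKM was 8.06 at 0 h, against at most 0.329 at 4 h. At 36 h over 4 h, where 39.4% of all genes were called, 6 of the 18 were higher and 3 lower. LIF, a cytokine of the IL-6 family, rose 9.05-fold to 57.7 ± 8.96 CPM (SD, n = 2), against 6.38 CPM at 0 h (edgeR adjusted p = 0.00161). IL1B, the inflammatory cytokine IL-1β, rose 3.25-fold (edgeR adjusted p = 0.00488), its co-receptor IL1RAP 2.49-fold (0.00944) and IL6 18.2-fold (0.0127). The cytokines LIF and IL6 fell at 36 h over 4 h, with log2 differences of -4.87 and -4.84 (edgeR adjusted p = 1.19e-05 and 0.000863), IL6 to 10 and 0 fragments at 36 h, against 129 and 266 at 4 h, so that its fold at 36 h rests on 1 library. TLR2, a sensor of bacterial lipoproteins, was 33.2-fold and IRAK2, a kinase of the same pathway, 5.81-fold higher there (edgeR adjusted p = 1.04e-05 and 0.000568).

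Of 18 NF-κB subunits and feedback genes, all tested, 5 were higher and none lower at 4 h over 0 h (6.24% of all genes called), 6 and none at 12 h over 0 h (4.24%), and 5 and 5 at 36 h over 4 h (39.4%). At 4 h TNFAIP3, the feedback inhibitor A20, was 3.63-fold above 0 h (edgeR adjusted p = 0.0046), the subunit RELB 3.13-fold (0.0111), the subunit NFKB2 2.63-fold (0.0155) and the co-activator BCL3 5.65-fold (0.0199). BIRC3, an NF-κB target that blocks apoptosis, was 3.30-fold and the A20 partner TNIP3 2.98-fold higher at 36 h over 4 h (edgeR adjusted p = 0.00165 and 0.00313), while the kinase IKBKE and the inhibitor NFKBIB fell by 1.49 and 1.28 on the log2 scale (edgeR adjusted p = 0.00156 and 0.00294). Of 11 tested AP-1 and C/EBP factors, 3 were higher and 1 lower at 4 h over 0 h (6.24% of all genes called). JUNB (2.86-fold), FOSL1 (3.00-fold) and FOSL2 (1.98-fold) rose and FOSB fell by 1.62 on the log2 scale (edgeR adjusted p = 0.00695, 0.0151, 0.0246 and 0.0127). Later, at 36 h over 4 h, where 39.4% of all genes were called, 2 were higher, FOS among them (1.59-fold, edgeR adjusted p = 0.011), and 4 were lower, including JUND, FOSL1 and CEBPD, which fell by 1.36, 1.54 and 1.03 (edgeR adjusted p = 0.00102, 0.00113 and 0.00618). Of the 20 non-member genes named for 4 h over 0 h, in this and the other lists, 13 lost the call under limma on log2(FPKM + 1) and 14 on log2(FPKM + 0.1).

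Of 10 genes that control the decay of such mRNAs, 2 were higher and none lower at 4 h over 0 h (6.24% of all genes called), ARID5A, which stabilises IL6 mRNA (3.25-fold), and RC3H1 (1.76-fold; edgeR adjusted p = 0.0297 and 0.0394). Of the 10 at 36 h over 4 h, 3 were higher and 3 lower, where 18.8% of all genes were higher and 20.5% lower. ZFP36L1 and ZFP36, which bind AU-rich mRNAs and speed their decay, rose 3.17-fold and 2.65-fold (edgeR adjusted p = 0.000567 and 0.00338), while RC3H1 and KHSRP, which also promote decay, fell by 1.06 and 1.38 on the log2 scale (edgeR adjusted p = 0.00122 and 0.00175).

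Of 11 tested genes for other inflammatory products that recruit or arm neutrophils or accompany them, 5 were called at 4 h over 0 h (3.15% of all genes higher), 8 at 12 h over 0 h (3.04%) and 10 at 36 h over 0 h (9.99%), all higher. S100A8 and S100A9, the subunits of calprotectin, rose 33.4-fold and 25.9-fold at 36 h over 4 h (edgeR adjusted p = 9.43e-06 and 9.34e-06), S100A9 to 9673 ± 1070 CPM, against 373.5 ± 38.4 CPM (SD, n = 2 each). The acute phase gene SAA1 rose 4.95-fold and CCL20, a ligand of CCR6 better known for attracting lymphocytes, 5.05-fold there (edgeR adjusted p = 4.55e-05 and 0.000257). At 4 h over 0 h SAA2 was 11.8-fold, CCL20 4.25-fold, ICAM1, the endothelial and epithelial adhesion molecule bound by neutrophils, 3.17-fold and SAA1 2.01-fold higher (edgeR adjusted p = 0.000606, 0.00976, 0.00978 and 0.0221).

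In parental cells, LINC00520 was accompanied by lower CXCL2 and CXCL3, while CXCL1 and IL8 did not pass the test. CXCL2 held 11.3 and 11.7 CPM in LINC00520 cells, against 20.7, 13.2 and 17.3 CPM in untransduced cells. Its groups did not overlap, which here and below is a description of few libraries, with no share over all genes given. It fell by 0.58 on the log2 scale (SE 0.123, edgeR adjusted p = 0.000361), by 0.39 without replicate 1 of the untransduced libraries, and missed the threshold with DESeq2 (adjusted p = 0.0526, from 2.21e-12 over the alternatives). CXCL3 held 2.39 and 1.65 CPM in LINC00520 cells, against 4.04, 2.43 and 3.35 CPM in untransduced cells. The groups did not overlap, with a narrow gap between 2.39 and 2.43 CPM. It fell by 0.70 (SE 0.21, edgeR adjusted p = 0.00743) on 58 and 37 fragments in LINC00520 cells, and without replicate 2 of those the fall was 0.47 and not past the threshold (adjusted p = 0.168, from 0.000194 over the alternatives).

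In the authors' deposited table both were also called significant, CXCL2 at a log2 fold change of -0.57 (q = 0.00123) and CXCL3 at -0.70 (q = 0.011). CXCL1 held 26.6 and 25.4 CPM in LINC00520 cells, against 31.6, 23.5 and 28.0 CPM in untransduced cells, and IL8 held 30.6 and 25.2 CPM, against 30.5, 24.1 and 29.7 CPM. The groups overlapped for both genes. The log2 differences were -0.10 for CXCL1 (SE 0.0814, edgeR adjusted p = 0.322) and -0.0058 for IL8 (SE 0.0811, edgeR adjusted p = 0.959). Without replicate 2 of the untransduced libraries CXCL1 passed the test (-0.21, edgeR adjusted p = 0.0121, within a range of 0.0121 to 0.791). CXCL5 had 10 and 13 fragments in LINC00520 cells, against 19, 7 and 9 in untransduced cells, a ratio of 1.25 (exact 95% interval 0.703 to 2.17). CXCL6 had 0 and 1 fragment in LINC00520 cells and none in untransduced cells. Thus 2 of the 4 tested members were called, both lower, where 50.0% of the 12790 tested genes were called, 25.2% higher and 24.8% lower, so the share of members called equals that of all genes. The members' median log2 difference was -0.34, against 0.00084 over all tested genes.

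**Figure D5:**
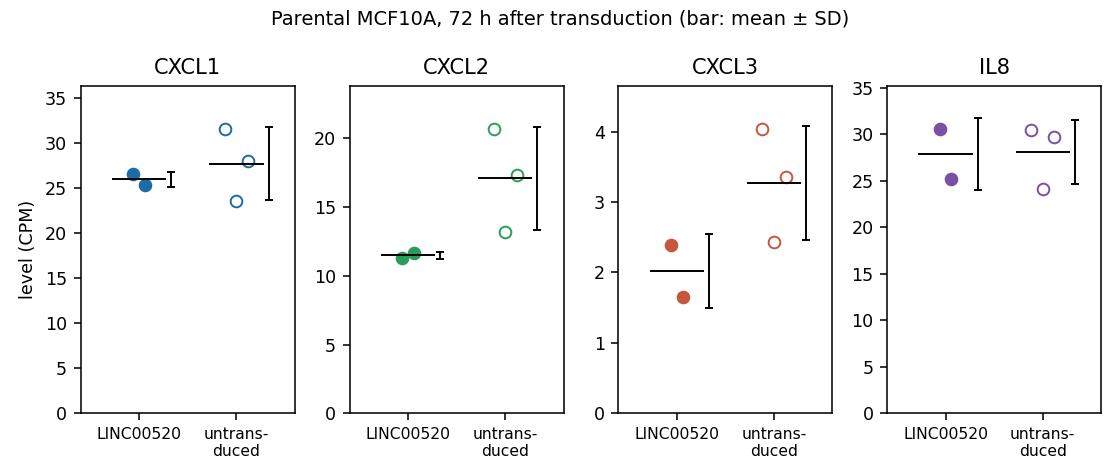
CPM of the 4 measured chemokines in each parental MCF10A library, with the mean and SD, LINC00520 (filled) left of untransduced (open), each axis starting at 0. CXCL2 and CXCL3 lie lower in LINC00520 cells, CXCL3 by a narrow gap, and CXCL1 and IL8 overlap.

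The lists of the pathway are to be read against the 50.0% of all genes called in LINC00520 cells. Of 18 NF-κB genes 2 were higher and 7 lower, with BIRC3 at 103.5 ± 5.41 CPM in LINC00520 cells (SD, n = 2), against 155 ± 5.01 CPM in untransduced cells (SD, n = 3; edgeR adjusted p = 5.34e-12), and the inhibitor NFKBIA (IκBα) falling by 0.38 on the log2 scale (edgeR adjusted p = 2.70e-06). CHUK was among the higher ones (1.26-fold, edgeR adjusted p = 5.00e-06). Of 9 tested AP-1 and C/EBP factors 1 was higher, FOSL1 (1.58-fold, edgeR adjusted p = 6.10e-10), and 6 were lower, including FOSL2, CEBPD and FOS, which fell by 0.51, 0.64 and 0.65 (edgeR adjusted p = 4.65e-11, 9.02e-10 and 8.27e-09). Of 16 tested genes on the cytokine and receptor list 4 were higher, IL1A (1.30-fold, edgeR adjusted p = 6.16e-09) and TLR2, which passed the filter only through the LINC00520 libraries, among them. Another 7 were lower, with the receptor IL6R falling by 0.95 (edgeR adjusted p = 1.25e-10). Of 9 tested genes of mRNA decay 2 were higher and 3 lower. KHSRP rose 1.14-fold and ELAVL1 1.12-fold (edgeR adjusted p = 2.08e-05 and 0.000222), while the endonuclease ZC3H12A fell by 0.85 (edgeR adjusted p = 1.52e-05). Of 10 tested neutrophil factors 1 was higher, PTGS2, which passed the filter only through the LINC00520 libraries, and 7 lower, with S100A8, S100A9, SAA1 and the complement gene C3 falling by 0.91, 0.86, 0.57 and 0.55 (edgeR adjusted p = 1.30e-10, 3.09e-13, 5.85e-11 and 2.64e-13). CXCL16, the 1 chemokine without ELR that was tested, fell by 0.34 (edgeR adjusted p = 0.000208).

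Of the receptors, ACKR1 was tested in parental cells and held 1.85 and 2.72 CPM in LINC00520 cells, against 2.95, 2.90 and 2.78 CPM in untransduced cells. The groups did not overlap, and the log2 difference was -0.35 (SE 0.176, edgeR adjusted p = 0.107). CXCR1 and CXCR2 lay below the filter. CXCR1 had 4 and 6 fragments in LINC00520 libraries, against 66, 74 and 46 in untransduced libraries, a ratio of 0.102 after scaling (exact 95% interval 0.0481 to 0.192). CXCR2 had 1 and 0 fragments in LINC00520 libraries, against 13, 13 and 7 in untransduced libraries, a ratio of 0.0575 (exact 95% interval 0.00141 to 0.343). Neither pair of groups overlapped, again a description only. Fitted without the filter, where 27.6% of 25941 genes were called, edgeR's adjusted p was 9.74e-22 for CXCR1 and 0.000216 for CXCR2. This fit was singled out after its values were seen. Beside it, the summed level of the 10 neutrophil and monocyte markers was 4.77 to 4.99 FPKM in LINC00520 cells, against 6.67 to 8.17 FPKM in untransduced cells, nearly all of it CD14, and its part in the receptor values was not tested.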

How the data were processed

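The submitters' processing notes name CASAVA 1.4, TopHat, Cuffdiff and the build hg19; the annotation, strand setting and other versions are not given in the sources used here. Per the file headers, the authors deposited Cuffdiff's estimated counts of fragments in every library, with FPKM values scaled between libraries. Their deposited test tables give log2 fold changes with a p-value and a q-value; the time-course log2 column reached values beyond a log2 range and was treated as a score that the authors deposited, with none printed. Of 13 samples 11 were matched by name, and 7 libraries of the over-expression table matched no label and were not used.

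The estimated counts, of which 92.4% to 99.9% a library were whole within 1e-06, were rounded. Genes were kept where 2 libraries (over-expression, 12790 genes) or 1 library (time course, 15572 genes) reached 1 FPKM, and were fitted with edgeR's QL test after TMM scaling, with 1 coefficient per group, 2-sided p-values and Benjamini-Hochberg adjustment. SEs are the absolute log2 fold change over the square root of F. CPM are TMM-scaled. The fit was tested on simulated data. Common coefficients of variation were 0.0249 (3 residual degrees of freedom) and 0.162 (2). The median chi-square ratio between replicates was 1.32 to 2.03 in parental cells, 13.7 at 4 h and 4.65 at 36 h, so no pair was 1 library. Alternatives were RLE factors, library totals, no filter, DESeq2, limma with pseudocounts of 1 and 0.1, a replicate block and leaving out each library. The members and lists were chosen with earlier results of these data known. Named were all 6 members, up to 4 called genes with the smallest p of each list in 3 comparisons (4 h over 0 h, 36 h over 4 h, LINC00520 over untransduced), and the 5 genes most like the members. Models were fitted in R 4.3.3 with DESeq2 1.42.0, limma 3.58.1 and edgeR 4.0.16, and sequences and plots made in Python 3.11.15 with Biopython 1.88, matplotlib 3.10.9, scipy 1.17.1, pandas 2.3.3 and numpy 2.4.6. Transcripts were those of GENCODE in the reference.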

Additional observations from a re-analysis of the deposited data

How the results depend on the processing

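Over the 4 measured members and 7 comparisons, 292 alternative values were computed: 234 kept direction and side of the threshold, 33 newly passed it, 13 no longer passed it and 12 changed sign. CXCL1 at 36 h over 12 h was 0.011 with DESeq2 and with RLE size factors, and 0.025 and 0.024 under limma with a pseudocount of 0.1 and 1, and IL8 in LINC00520 over untransduced cells was 0.032 and 0.031 under the same limma fits and 0.032 with the replicate block. Leaving out libraries, IL8 there ranged from -0.16 to 0.12 and CXCL1 from -0.21 to 0.025. IL8 at 12 h over 4 h was -0.68 without replicate 1 of the 4 h libraries and 0.43 without replicate 2, against -0.24 with both. The cause was not tested. IL6 at 36 h over 4 h has no measured fold without replicate 1 of the 36 h libraries, since the other holds 0 fragments.

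Members called moved to 0 under both limma fits at 4 h over 0 h and at 12 h over 4 h; to 4 at 12 h over 0 h, and 2 at 12 h over 4 h and at 36 h over 12 h, without the filter; to 2 in these last 2 with DESeq2; and to 1 for LINC00520 with DESeq2. With 1 untransduced library left out, 2 to 3 members were called for LINC00520. Time-course fits with a library left out rest on the spread of 1 pair, so their counts are not given, though they enter the 292 values. Fits that leave 1 LINC00520 library are not counted here either.

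Genes called under limma, with a pseudocount of 1 and then 0.1, numbered 180 and 158 at 4 h over 0 h (edgeR 972), 223 and 252 at 12 h over 0 h (edgeR 661), 1554 and 1320 at 36 h over 0 h (edgeR 3014), 43 and 55 at 12 h over 4 h (edgeR 716), and 1090 and 648 at 36 h over 12 h (edgeR 3250). Without the filter the first 4 were 2794, 1717, 5066 and 1768. With libraries left out the counts ranged from 1101 to 4288 at 4 h over 0 h, 776 to 2708 at 12 h over 0 h, 1923 to 6058 at 36 h over 0 h, 811 to 3128 at 12 h over 4 h, 1544 to 6407 at 36 h over 12 h, 3652 to 7360 at 36 h over 4 h and 4841 to 6311 for LINC00520. Scaling by library totals gave 4756 at 36 h over 0 h, 1016 higher and 3740 lower against 1556 and 1458, and moved the median of all genes to -0.43 from -0.077. It likewise gave 836 higher and 3275 lower against 1609 and 1641 at 36 h over 12 h (median -0.33), and 1861 and 4823 against 2930 and 3200 at 36 h over 4 h (median -0.29), with the same number of members called in these 3 comparisons.

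Same-numbered libraries did not deviate together (correlation -0.06 for LINC00520 and untransduced, 0.102 for 36 h and 4 h, on 2 shared numbers each), so the numbers were not taken as pairs. With the replicate block 3 members were called at 36 h over 4 h (IL8 at 0.94, adjusted p = 0.00959) and 2 for LINC00520, and genes called numbered 6453 and 5500. With 1 library at 0 h and at 12 h, those groups were assumed to vary like the pairs, and CXCL5 and CXCL6 are limited by depth.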
